A study of Mus musculus with 2 samples.

Results

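The CXC chemokines, platelet factor 4 (Pf4) and the chemokine receptor Cxcr4 were examined in the nuclear RNA of mouse macrophages shortly after a Toll-like receptor 4 stimulus. The 9 genes were taken by symbol out of 55450 annotated genes and grouped by role. Cxcl1, Cxcl2 and Cxcl3 formed the neutrophil-attracting group, Cxcl9 and Cxcl10 the interferon-type group, and Cxcl14, Cxcl16 and Pf4 the constitutive group, with Cxcr4 as the receptor. Bone marrow derived macrophages of the C57BL/6J strain received Lipid A, the part of lipopolysaccharide that Toll-like receptor 4 recognises, at 100 ng/ml for 10 minutes, and total RNA of the nuclear fraction was sequenced after ribosomal RNA depletion. The single group held 2 libraries, replicate 1 made from 1 µg of RNA and replicate 2 from 500 ng. Both carry the same donor identifier but are separate biosamples, and separate animals, sex and age were not stated. No untreated macrophages were analysed here, so the levels describe 1 time point and cannot be read as induction. Replicate 1 held 19130081 expected counts on annotated genes and replicate 2 held 11608680, where an expected count is a read total that a program estimates per gene or transcript and that need not be whole.

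CXC chemokines are small secreted proteins that guide leukocytes through G protein-coupled receptors. Those with a glutamate-leucine-arginine motif before the first cysteines, among them CXCL1, CXCL2 and CXCL3, attract neutrophils through CXCR2, whereas CXCL9 and CXCL10 are interferon-induced ligands of CXCR3 on T and natural killer cells. In macrophages, Toll-like receptor 4 signalling is known to raise Cxcl1, Cxcl2 and Cxcl10 transcription, in part through NF-kB, which binds kB sites in their promoters.

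The promoters of Cxcl1, Cxcl2 and Cxcl3 are shown because they have a kB match in common, and that of Cxcl10 because its kB matches have other letters. In each RefSeq sequence (build GRCm38.p6, 5′ to 3′ on the strand of the gene), capitals mark matches to the kB motif and, in Cxcl10, also to the IRF and AP-1 motifs. Each sequence stops before the first annotated transcribed base.
Cxcl1 promoter, chr5:90891025-90891240, plus strand: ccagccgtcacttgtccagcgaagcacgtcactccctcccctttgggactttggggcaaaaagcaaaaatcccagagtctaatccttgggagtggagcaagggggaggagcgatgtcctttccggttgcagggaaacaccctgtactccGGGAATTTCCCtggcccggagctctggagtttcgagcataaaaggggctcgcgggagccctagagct
Cxcl2 promoter, chr5:90903679-90903870, plus strand: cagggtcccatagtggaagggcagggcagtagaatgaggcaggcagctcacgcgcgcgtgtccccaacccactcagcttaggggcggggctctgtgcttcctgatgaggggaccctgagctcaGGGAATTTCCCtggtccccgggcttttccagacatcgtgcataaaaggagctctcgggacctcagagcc
Cxcl3 promoter, chr5:90785881-90786100, plus strand: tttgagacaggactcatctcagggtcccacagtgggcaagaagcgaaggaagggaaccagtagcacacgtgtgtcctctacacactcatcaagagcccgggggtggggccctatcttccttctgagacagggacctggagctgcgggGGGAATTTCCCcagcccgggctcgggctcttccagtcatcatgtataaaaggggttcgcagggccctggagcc
Cxcl10 promoter, chr5:92348890-92349109, minus strand: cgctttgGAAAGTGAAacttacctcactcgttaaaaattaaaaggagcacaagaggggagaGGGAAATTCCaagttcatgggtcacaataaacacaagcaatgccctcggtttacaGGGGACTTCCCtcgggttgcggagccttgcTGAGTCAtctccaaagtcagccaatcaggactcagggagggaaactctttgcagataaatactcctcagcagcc

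The Cxcl1, Cxcl2 and Cxcl3 promoters held the same 10 bases, GGGAATTTCC, with a further kB match on the opposite strand 1 base on, so that each shows an unbroken GGGAATTTCCC. The match began 71 bases before the RefSeq start in Cxcl1, 97 bases before it in Cxcl2 and 73 bases before it in Cxcl3. Of 32851 RefSeq promoter windows of 250 bases, 28 (0.0852%) held GGGAATTTCC on either strand. Any form of the kB motif was present in 7.25% of the windows. In Cxcl10, kB matches began 159, 104 and 103 bases before the start, and the last of these matched on both strands. Its IRF match (GAAANNGAA, bound by interferon regulatory factors) began at 213 bases and its AP-1 match (TGANTCA, bound by Fos and Jun dimers) at 74 bases. These motifs were present in 7.13% and 6.75% of the windows. Among the other members with an entry (8 of 9 matched), Cxcl9 and Cxcl14 each held 1 IRF match, Cxcl3, Cxcl9 and Cxcr4 held TATAAA, present in 12.4% of windows, and the Pf4 window held none of these motifs. A match is a description of the letters on either strand, and binding was not measured here.

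RNA of 6 members was detected, defined as a level of at least 1 TPM in both libraries (TPM is the share of a library's transcripts, corrected for transcript length). They were Cxcl1, Cxcl2, Cxcl10, Cxcl16, Pf4 and Cxcr4. In replicate 2 Cxcl1 passed only through a retained intron transcript, described below, with 1.59 TPM, while its coding transcript had 0.36 TPM. The same threshold was met by 23.6% of all annotated genes and by 46.1% of protein-coding genes. Cxcl3, Cxcl9 and Cxcl14 stood at 0.04 TPM or less in both libraries. Each role group thus had at least 1 member with RNA, and each of the 3 ligand groups also had a member near 0. In bulk RNA, fewer cells with a transcript and less RNA per cell cannot be told apart.

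**Figure D1:**
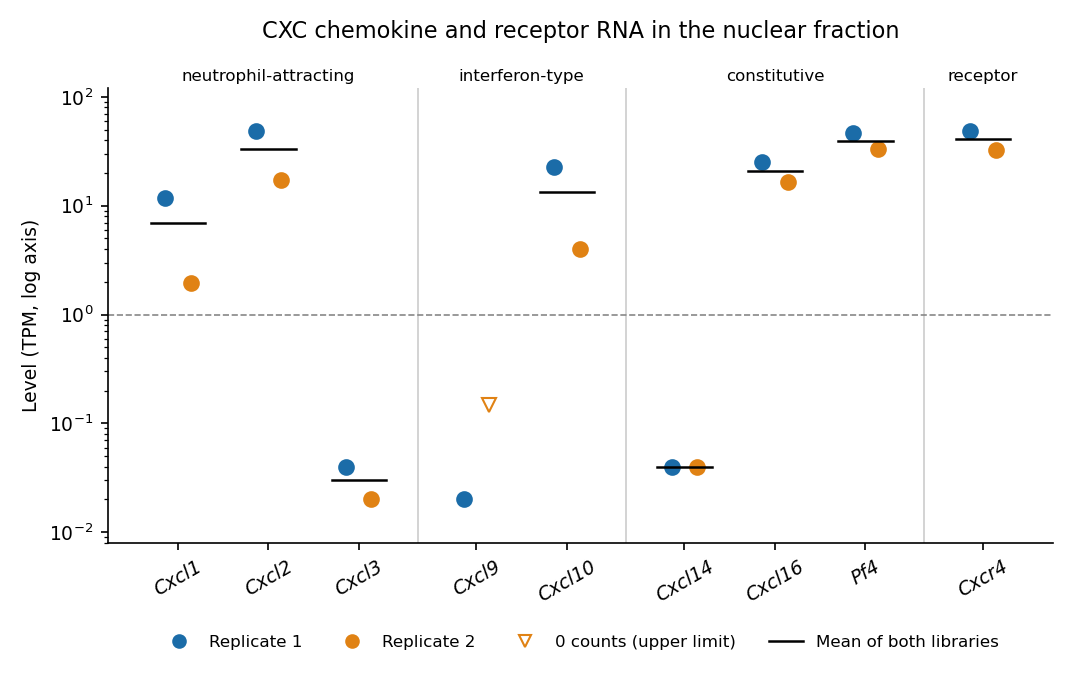
Level of each member in TPM on a log axis, with replicate 1 left of replicate 2, the mean of both as a bar, and the dashed line at the detection threshold of 1 TPM. The open triangle is the limit, 0.146 TPM, that 0 counts allow for Cxcl9 in replicate 2 by counting error alone. The authors' deposited interval for it reached 1.23 TPM. Cxcl1, Cxcl2 and Cxcl10 show the wider gaps between libraries, and the plotted levels of Cxcl3, Cxcl9 and Cxcl14 lie far below the threshold.

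Among the neutrophil-attracting genes, Cxcl2, which encodes macrophage inflammatory protein 2, lies on chromosome 5 from 90903871 to 90905938 on the plus strand (build mm10). It had 48.8 TPM in replicate 1 and 17.4 TPM in replicate 2, a mean of 33.1 ± 22.2 TPM (SD, n = 2). Replicate 1 was clearly the higher library. Its expected counts were 1368 in replicate 1 and 317 in replicate 2, and after TMM scaling, which sets the libraries to a common size, replicate 1 was 2.56-fold replicate 2 (95% Clopper-Pearson interval 2.27 to 2.91). This level placed Cxcl2 at the 95.2nd percentile of protein-coding genes in replicate 1 and at the 85.2nd in replicate 2.

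Cxcl1, the keratinocyte-derived chemokine KC of older literature, lies on the same strand from 90891241 to 90893115. It had 11.8 TPM in replicate 1 and 1.95 TPM in replicate 2, a mean of 6.90 ± 6.99 TPM (SD, n = 2). The SD was as large as the mean. The counts were 252 in replicate 1 and 42 in replicate 2, and the scaled ratio was 3.57 (interval 2.56 to 5.07). The TPM ratio was larger, at 6.07, because the gene's effective length was 947 bases in replicate 1 and 1487 bases in replicate 2, which follows the mix of its transcripts described below. The authors' deposited TPM intervals, 9.79 to 12.8 in replicate 1 and 1.36 to 2.59 in replicate 2, did not overlap.

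Cxcl3, a further CXCR2 ligand between Pf4 and Cxcl1 (90786103 to 90789600, plus strand), had 3 counts in replicate 1 and 1 count in replicate 2, which is 0.04 TPM in replicate 1 and 0.02 TPM in replicate 2. All of them were assigned to the single-exon retained intron model, and the spliced coding model had 0 counts in both libraries. The authors' second quantification placed more counts on that single-exon model, 18.2 in replicate 1 and 76.4 in replicate 2, still below 1 TPM. At this depth no difference between the libraries was detectable (count ratio 1.78, interval 0.143 to 93.6). Cxcl3 therefore had little RNA although its promoter holds the same 10-base kB match as those of Cxcl1 and Cxcl2. Of the 31-base words in Cxcl2 transcripts, 7.59% also occur in Cxcl3 and in no other gene, so a part of the reads could be assigned to either.

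The members from Pf4 to Cxcl2 lie in one cluster of 133504 bases, with 9 annotated genes in it. Pf4, Cxcl1 and Cxcl2 were detected, Cxcl3 was near 0, and the remaining 5 (Cxcl15, Gm24322, Gm43085, Gm43086 and Gm22816) had 0 counts in both libraries. Genes with and without detected RNA were thus neighbours.

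**Figure D2:**
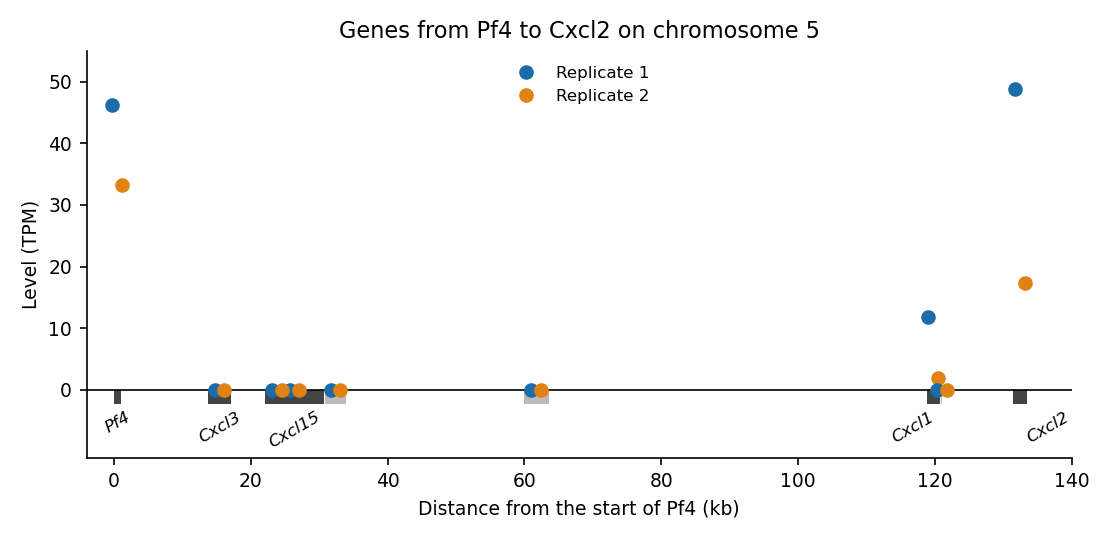
Level in TPM of the 9 annotated genes from Pf4 to Cxcl2 against distance from the start of Pf4 in kb, with replicate 1 drawn left of replicate 2. Blocks under the axis are gene spans, dark for protein-coding and light for other genes. Pf4 at one end and Cxcl1 and Cxcl2 at the other carry RNA, and the genes between them lie at or near 0.

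In the interferon-type group, Cxcl10, the CXCR3 ligand also called interferon gamma-induced protein 10, lies on chromosome 5 from 92346638 to 92348889 on the minus strand. It had 22.5 TPM in replicate 1 and 4.01 TPM in replicate 2, a mean of 13.2 ± 13.1 TPM (SD, n = 2). Its expected counts were 508 in replicate 1 and 73 in replicate 2, and the scaled count ratio of 4.14 (interval 3.23 to 5.36) was the largest of the 6 detected members. The authors' deposited TPM intervals were 19.3 to 24.6 in replicate 1 and 3.11 to 6.00 in replicate 2, without overlap.

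Cxcl9, the other CXCR3 ligand of the group, lies in the same region (92321347 to 92328079, minus strand) and had 1 count in replicate 1 and 0 counts in replicate 2. Its level was 0.02 TPM in replicate 1 and was listed at 0 in replicate 2. By counting error alone, 0 counts there allow up to 0.146 TPM. The authors' deposited TPM intervals were wider, 0.00511 to 0.909 in replicate 1 and 0.00175 to 1.23 in replicate 2. The interval of replicate 2 thus reached above 1 TPM. The second quantification gave Cxcl9 43.1 counts in replicate 1 and 80.1 in replicate 2, which is below 1 TPM in both. It gave Cxcl10 537 counts in replicate 1 and 101 in replicate 2, so in replicate 2 of that table the genes stood at 2.21 TPM (Cxcl10) and 0.872 TPM (Cxcl9), much closer than in the gene tables. Art3, an ADP-ribosyltransferase family gene on the opposite strand that overlaps Cxcl10 by 133 exonic bases, had 0.55 TPM in replicate 1 and 0.13 TPM in replicate 2. Whether the counting used strand is not stated, so reads in the overlap are uncertain.

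The constitutive group held Pf4, the platelet chemokine first known from platelet granules, and Cxcl16, a transmembrane chemokine that binds CXCR6 and also acts as a scavenger receptor. Pf4 (chromosome 5, 90772435 to 90773383, plus strand) had 46.1 TPM in replicate 1 and 33.3 TPM in replicate 2, a mean of 39.7 ± 9.09 TPM (SD, n = 2). Its counts, 330 in replicate 1 and 153 in replicate 2, gave a scaled ratio of 1.28 (interval 1.06 to 1.56). Pf4 stood at the 94.9th percentile of protein-coding genes in replicate 1 and at the 92.8th in replicate 2.

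Pf4 is best known from megakaryocytes and platelets, so markers of those cells were read beside it. Of 12 such markers, 4 were detected: Treml1 (6.98 TPM in replicate 1, 8.06 in replicate 2), Itgb3 (5.55 in replicate 1, 5.56 in replicate 2), Clec1b (1.32 in replicate 1, 1.46 in replicate 2) and Gp1ba (1.15 in replicate 1, 1.05 in replicate 2). The whole list of 12 added up to 17.04 TPM in replicate 1 and to 17.22 TPM in replicate 2, less than Pf4 alone, while none of the 12 had 0 counts in both libraries. The integrin gene Itga2b had 0.75 TPM in replicate 1 and 0.71 TPM in replicate 2. The related platelet chemokine Ppbp had 0.62 TPM in replicate 1 against 0.32 TPM in replicate 2. Gp5 and Gp6 were the lowest, each at a mean of 0.01 TPM. In the second quantification 3 of the 12 were detected, Treml1, Itgb3 and Itga2b (1.13 TPM in replicate 1, 1.47 in replicate 2). Clec1b and Gp1ba were not detected there. The part of such cells in the Pf4 level was not tested.

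Cxcl16 (chromosome 11, 70453983 to 70459984, minus strand) had 25.4 TPM in replicate 1 and 16.5 TPM in replicate 2, a mean of 20.97 ± 6.34 TPM (SD, n = 2). Counts of 1251 in replicate 1 and 502 in replicate 2 gave a scaled ratio of 1.48 (interval 1.33 to 1.65). Cxcl16 overlaps Zmynd15 on the opposite strand by 552 exonic bases, and 18.5% of its 31-base words also occur in that gene, so its value is uncertain to that extent. Zmynd15 itself had 3.85 TPM in replicate 1 and 2.19 TPM in replicate 2. The metalloproteases that release the CXCL16 ectodomain were both detected, Adam10 at 24.5 TPM in replicate 1 against 21.2 TPM in replicate 2, and Adam17 at 46.0 TPM in replicate 1 against 34.2 TPM in replicate 2.

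Cxcl14, a chemokine made constitutively in epithelia (chromosome 13, 56288643 to 56296551, minus strand), had 1 count in each library, 0.04 TPM in both. It was the constitutive member without detected RNA.

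The receptor gene Cxcr4, whose protein binds CXCL12 and retains leukocytes in bone marrow, lies on chromosome 1 from 128588199 to 128592293 on the minus strand. It had 49.0 TPM in replicate 1 and 32.2 TPM in replicate 2, a mean of 40.6 ± 11.9 TPM (SD, n = 2), next to Pf4 at the top of the members. Counts of 1587 in replicate 1 and 724 in replicate 2 gave a scaled ratio of 1.30 (interval 1.19 to 1.42). Its ligand gene Cxcl12 had 0.04 TPM in each library. The log2 difference between the libraries was 0.38 on scaled counts and 0.59 on log2(TPM + 1). The second quantification put Cxcr4 at 20.6 TPM in replicate 1 against 21.4 TPM in replicate 2, which turns the direction on the TPM scale.

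Both annotated Cxcr4 transcripts code for protein and have 2 exons. The longer had 1473 counts in replicate 1 and 712 in replicate 2, a scaled ratio of 1.23 (interval 1.12 to 1.35). The shorter had 114 counts in replicate 1 and 12.4 in replicate 2, a scaled ratio of 5.65 (interval 3.11 to 11.2), and held 7.17% of the gene's counts in replicate 1 against 1.72% in replicate 2. The 2 transcripts of this gene therefore differed between the libraries by unequal amounts.

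Ordered by mean TPM, the members ran Cxcr4, Pf4, Cxcl2, Cxcl16, Cxcl10, Cxcl1, Cxcl14, Cxcl3 and Cxcl9. Among the 6 detected members every neighbouring pair had overlapping ranges, so none of these neighbours differed beyond the spread between libraries. Within each library of the gene tables, however, Cxcl2 was above Cxcl16, Cxcl16 above Cxcl10 and Cxcl10 above Cxcl1. The second quantification turned the order of Cxcl2 (10.4 TPM) and Cxcl16 (12.1 TPM) in replicate 2. It kept that order in replicate 1, with Cxcl2 at 18.1 TPM and Cxcl16 at 13.4 TPM. By mean TPM of the second quantification Pf4 (33.0 TPM) stood above Cxcr4 (20.998 TPM). In replicate 1 of the gene tables Cxcl2 stood between Cxcr4 and Pf4, and in replicate 2 it stood below both, with Pf4 the highest. Cxcl1 and Cxcl14 were the neighbours whose ranges did not overlap. Of the members, Cxcl1, Cxcl2, Cxcl3 and Cxcl10 alone have a single-exon model, described below, in their TPM. The order therefore also depends on which models are annotated.

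Cxcl14, Cxcl16 and Pf4 together made up 45.9% of the summed TPM of 15 CXC ligand genes in replicate 1 and 67.4% in replicate 2. The TPM of Cxcl1, Cxcl2, Cxcl3 and Cxcl10 includes a single-exon model, described below, while Cxcl14, Cxcl16 and Pf4 have none. The shares of the role groups therefore set unlike transcript models side by side. The neutrophil-attracting genes made up 38.9% in replicate 1 and 26.2% in replicate 2, and the interferon-type genes 14.4% in replicate 1 and 5.42% in replicate 2. The 15 genes added up to 156 TPM in replicate 1, against 73.9 TPM in replicate 2. Pf4 was the larger single source in replicate 2 (45.0%, against 23.5% for Cxcl2), and in replicate 1 Cxcl2 held 31.3% and Pf4 29.6%. The second quantification turned that order, with Pf4 at 35.2 TPM and Cxcl2 at 18.1 TPM in replicate 1.

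Of the 6 members with a mean of at least 50 scaled counts, Cxcl1, Cxcl2 and Cxcl10 (3 of 6) were over 2-fold higher in replicate 1, and 0 were over 2-fold lower. Over all 11524 genes that passed the same filter, 1.41% were over 2-fold higher and 0.469% over 2-fold lower in replicate 1. The balance over all genes depended on the setting: in the second quantification 1.35% were over 2-fold higher and 4.75% lower, and with no filter 3.72% were higher and 3.59% lower. The log2 differences were 2.04 for Cxcl10, 1.82 for Cxcl1, 1.36 for Cxcl2, 0.57 for Cxcl16, 0.38 for Cxcr4 and 0.36 for Pf4. Their median was 0.96, beside -0.01 for all genes. The 3 members over 2-fold higher stood at percentiles 99.9 (Cxcl10), 99.8 (Cxcl1) and 99.5 (Cxcl2), and the other 3 lay between 85.8 and 93.9. Cxcl3, Cxcl9 and Cxcl14 did not pass the filter, so the role groups are not fully covered. A single library stands on each side, so no p-value is given. The intervals reflect counting error alone, because they are computed from the counts of 1 library on each side. Without molecular identifiers several reads can come from 1 molecule, so the counting error itself may be larger than they show. The input amount of RNA differed with the libraries, and its part in the differences was not tested.

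**Figure D3:**
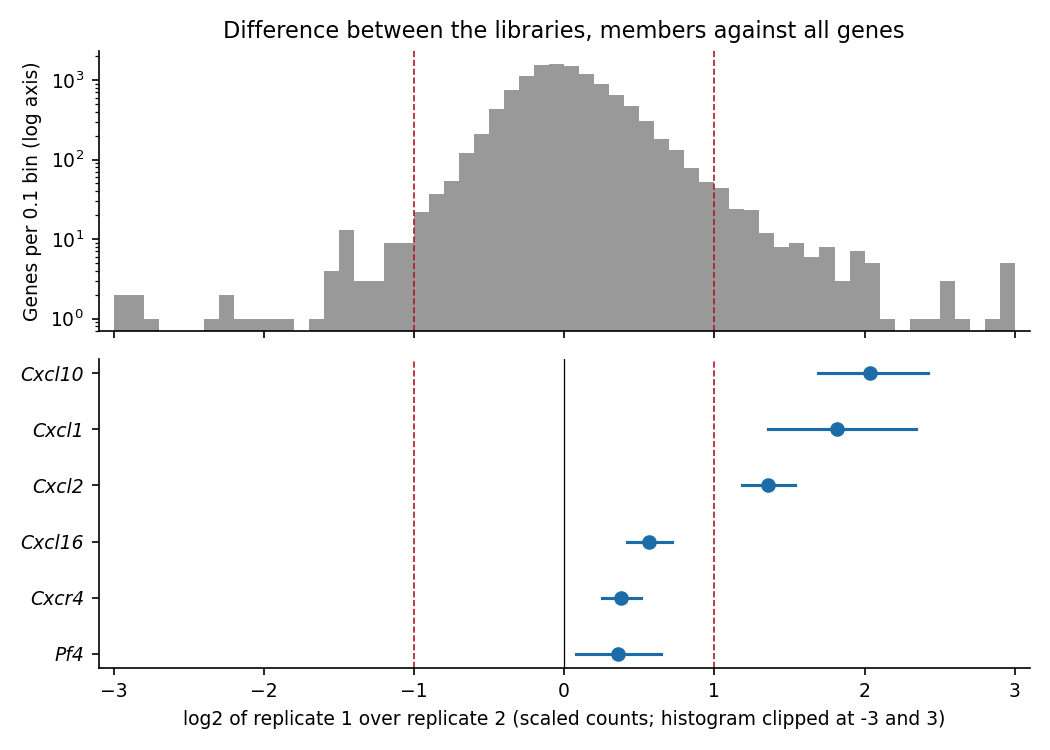
Upper panel: number of genes (log axis) by log2 of replicate 1 over replicate 2, in scaled counts, for 11524 genes. Lower panel: the 6 members with their 95% counting intervals, and dashed lines at 2-fold. Cxcl10, Cxcl1 and Cxcl2 lie beyond the 2-fold line, and Cxcl16, Cxcr4 and Pf4 lie between 0 and it.

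Macrophage markers bear on the same comparison. All 10 were detected, with means from 29.8 TPM (Spi1, the macrophage transcription factor PU.1) to 1762 TPM (Lyz2, lysozyme). Their levels added up to 3732 TPM in replicate 1, against 2289 TPM in replicate 2, with a median log2 difference of 0.57 and a range from -0.30 to 1.09. The Lipid A co-receptor gene Cd14 was the 1 marker over 2-fold higher in replicate 1. Cxcl16, Cxcr4 and Pf4 therefore differed by no more than the median macrophage marker. The part of macrophage content in the member differences was not tested.

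Markers of other cell types were low. The 12 neutrophil markers added up to 64.55 TPM in replicate 1, against 85.25 TPM in replicate 2, mostly Csf3r (55.5 TPM in replicate 1, 78.0 in replicate 2), a receptor gene that macrophages also express. Mmp8 and S100a8 were the other detected neutrophil markers (3 of 12), and 3 had 0 counts in both libraries. None of 8 lymphocyte and none of 6 dendritic cell markers was detected in the gene tables, whereas the second quantification placed 1 of each list above the threshold, Cd3d (2.53 TPM in replicate 1, 10.1 in replicate 2) and Siglech (1.22 in replicate 1, 1.72 in replicate 2). Kdr was the 1 of 8 fibroblast and endothelial markers that was (5.51 TPM in replicate 1, 4.35 in replicate 2).

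The transcript models showed a further difference between the libraries in Cxcl1, Cxcl2 and Cxcl10. For each of Cxcl1, Cxcl2 and Cxcl10, GENCODE annotates a retained intron transcript that is a single exon over 99.0% to 99.9% of the gene, which is the form of unspliced RNA. Both kinds of RNA are present in a nuclear fraction, and the authors' program assigned reads to each. Retained intron transcripts were compared with the other transcripts of a gene, a grouping chosen after the data had been seen.

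Retained intron transcripts made up 24.1% of Cxcl1 TPM in replicate 1 and 81.5% in replicate 2. By expected counts, which allow an interval, the Cxcl1 share was 41.8% (Clopper-Pearson 35.5 to 48.0) in replicate 1 and 90.8% (77.4 to 97.3) in replicate 2. In replicate 2, then, most Cxcl1 counts were assigned to the unspliced form. The Cxcl2 share of TPM was 32.1% in replicate 1 and 59.8% in replicate 2. Its share of counts was 47.3% (44.6 to 49.98) in replicate 1 and 67.2% (61.7 to 72.3) in replicate 2. In replicate 2, 15.6% of Cxcl2 TPM came from a second model of this class, with 397 bases, 2 exons and 7.24 counts. The single-exon model alone held 32.1% of Cxcl2 TPM in replicate 1 and 44.2% in replicate 2. The Cxcl10 share of TPM was 24.1% in replicate 1 and 33.4% in replicate 2. Its share of counts was 34.3% (30.1 to 38.6) in replicate 1 and 53.4% (41.4 to 65.2) in replicate 2. In replicate 1, 7.30% of Cxcl10 TPM came from another model of this class, with 344 bases, 2 exons and 4.51 counts. The single-exon model alone held 16.8% of Cxcl10 TPM in replicate 1 and 33.4% in replicate 2. For all 3 genes the count intervals of the libraries did not overlap.

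By expected counts the constitutive members had smaller shares, but their models differ in form. The retained intron model of Cxcl16 has 6 exons over 77.4% of the gene, and that of Pf4 has 2 exons over 51.4%. Neither gene has an annotated single-exon transcript, so their shares cannot be read as less unspliced RNA. Retained intron transcripts held 11.4% of Cxcl16 counts in replicate 1 and 7.73% in replicate 2, while their share of its TPM was 17.3% in replicate 1 and 11.2% in replicate 2. For Pf4 the share of counts was 3.0% in replicate 1 and 6.73% in replicate 2, while the share of TPM was 6.96% in replicate 1 and 14.3% in replicate 2. These shares depended on the quantification: in the second one the share of TPM was 37.2% in replicate 1 and 25.0% in replicate 2 for Cxcl16, and 33.7% in replicate 1 and 31.5% in replicate 2 for Pf4. In replicate 1 both were then above Cxcl1 (25.6%), Cxcl2 (32.4%) and Cxcl10 (27.0%). Cxcr4 has no annotated retained intron transcript. Across the 5 members with both classes and a mean of at least 50 scaled counts, 3 had a share of counts over 10 percentage points lower in replicate 1 (Cxcl1 by -48.9, Cxcl2 by -19.9 and Cxcl10 by -19.1 points), beside 7.91% of 6205 genes. Over those genes the median difference was -0.128 points, and 4.03% had a share over 10 points higher in replicate 1. Cxcl16 differed by 3.65 points and Pf4 by -3.72 points.

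The difference between libraries was larger in the other transcripts of Cxcl1, Cxcl2 and Cxcl10 than in their retained intron class. Spliced Cxcl1 RNA had 147 counts in replicate 1 and 3.88 in replicate 2, a scaled ratio of 21.8 (interval 8.35 to 81.2), while the unspliced model had 105 counts in replicate 1 and 38.1 in replicate 2, a ratio of 1.64 (1.12 to 2.45). For Cxcl2 the ratio was 4.12 (3.35 to 5.11) in the other transcripts and 1.81 (1.54 to 2.12) in the retained intron class. The other transcripts of Cxcl2 are not all fully spliced. A coding model with 3 exons has 1859 bases over 100% of the gene, and its ratio was 2.75 (1.85 to 4.23). The coding model with 4 exons and 1109 bases had a ratio of 4.67 (3.67 to 6.04). For Cxcl10 the ratio was 5.84 (4.10 to 8.57) in the other transcripts and 2.65 (1.86 to 3.86) in the retained intron class. In each of the 3 genes the intervals of the classes did not overlap. For Cxcl16 the order was the reverse, with 1.42 (1.28 to 1.59) in the other transcripts and 2.16 (1.51 to 3.17) in the retained intron class, and these intervals overlapped. For Pf4 the ratio was 1.33 (1.09 to 1.63) in the other transcripts and 0.594 (0.222 to 1.59) in the retained intron class, again with overlap. These counts are estimates, and the intervals leave out the error of assigning reads between transcripts that share exons.

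**Figure D4:**
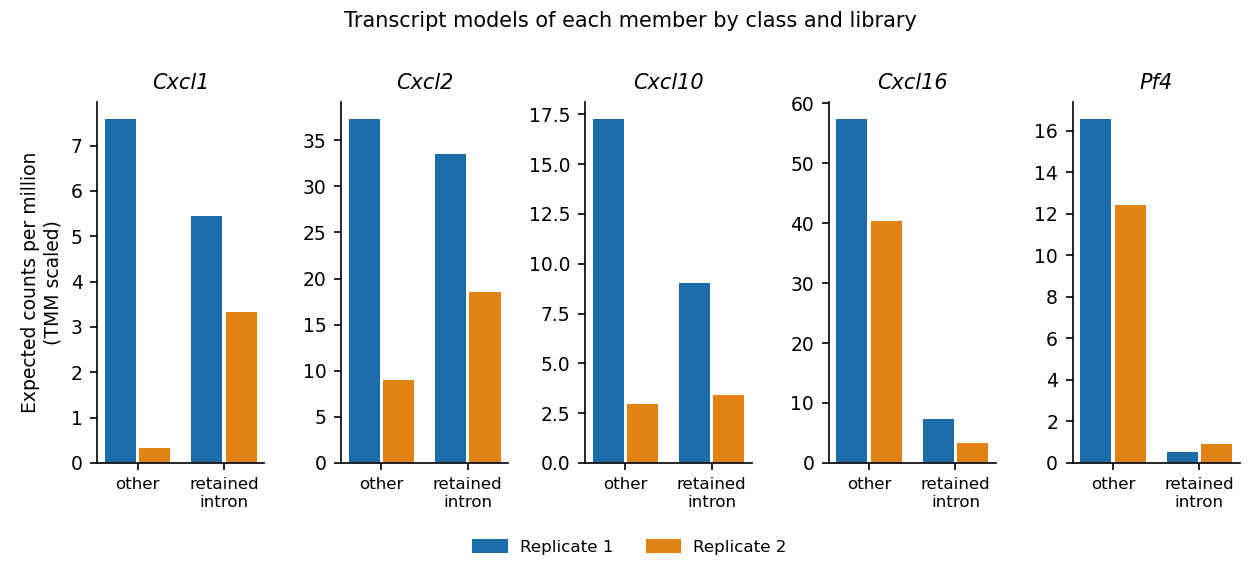
Expected counts as CPM after TMM scaling for the other and the retained intron transcripts of 5 members, with replicate 1 left of replicate 2 and an axis from 0 in each panel. In Cxcl1, Cxcl2 and Cxcl10 the libraries are farther apart in the other transcripts than in the retained intron class, and Cxcl16 and Pf4 are mostly made of other transcripts in both libraries.

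The rest of the family was low. Of 7 other CXC ligands 0 were detected: Ppbp and Cxcl17 were the highest at means of 0.47 and 0.29 TPM, and Cxcl13 and Cxcl15 had 0 counts. Among 7 other receptors, Cxcr6, the CXCL16 receptor, had 4.42 TPM in replicate 1 and 3.0 TPM in replicate 2. Cxcr3, the receptor of CXCL9 and CXCL10, had 1.60 TPM in replicate 1 and 1.37 TPM in replicate 2. Cxcr2, through which CXCL1 and CXCL2 act, had 0.09 TPM in replicate 1 and 0.10 TPM in replicate 2 in the gene tables, but 0.832 TPM in replicate 1 and 1.76 TPM in replicate 2 in the second quantification. In that table Cxcr6 alone of the 7 was detected, and Cxcr3 had 0.623 TPM in replicate 1 and 0.836 TPM in replicate 2. Cxcr1, Ackr1 and Ackr3 had 0 TPM in both libraries and Cxcr5 was below 0.1 TPM.

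A chosen list of signalling genes downstream of chemokine receptors was read beside the members. All 23 genes of the list were detected, beside 46.1% of protein-coding genes. The list was chosen with earlier results of these data known, so this count is a description only. Of the 23, 0 were over 2-fold apart in either direction, which is near the 1.41% higher and 0.469% lower over all 11524 genes. Their median log2 difference was 0.02 (range -0.36 to 0.43). The highest by mean TPM were Arrb2, a beta-arrestin (138 TPM in replicate 1, 139 in replicate 2), Dock2, a Rac activator in leukocyte migration (132 in replicate 1, 145 in replicate 2), Rgs1, a G protein signalling regulator (93.5 in replicate 1, 66.4 in replicate 2), and Gnb2, a G protein beta subunit (81.2 in replicate 1, 66.0 in replicate 2). Rgs14 (4.51 TPM in replicate 1, 3.71 in replicate 2) and Rgs18 (5.57 in replicate 1, 5.21 in replicate 2) were the lowest.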

How the data were processed

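Sequencing of ribosomal RNA-depleted total RNA covered 2 libraries of 1 group, numbered by the labels. The labels call the fraction nucleoplasmic in one field and nuclear in another, so the place of chromatin-bound RNA is unclear. The authors deposited gene and transcript tables with expected counts (estimated counts that need not be whole) and TPM, and a second transcript table with its own estimated counts and TPM, here the second quantification. Per the labels and the deposited text files, the build was mm10 and the annotation GENCODE M21. No source used here names the programs. Interval bounds on the TPM scale, a signal that surrounds the posterior mean, and effective lengths were used as the authors deposited them.

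Entries naming no annotated gene (1.30% of counts in replicate 1, 0.522% in replicate 2) were left out. The other expected counts totalled 19130081 in replicate 1 and 11608680 in replicate 2, and were rounded. Libraries were scaled by TMM in edgeR 4.0.16 (R 4.3.3), or by DESeq2 1.42.0 size factors as an alternative. They differed beyond counting noise (chi-square per degree of freedom 32.2 over 14541 genes). Differences are log2 ratios of replicate 1 over replicate 2 with a pseudocount of 1, for genes with a mean of at least 50 scaled counts, and a 2-fold difference was the size rule. Intervals are Clopper-Pearson at 95%. An upper limit for 0 counts used 3 counts and leaves out the error of assigning reads. The scaling and difference step was tested on simulated counts. Promoters were read from RefSeq (GRCm38.p6) and both strands were searched. Python 3.11.15, numpy 2.4.6, pandas 2.3.3 and scipy 1.17.1 were used.

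By rule the 9 members could be named, as could any other ligand, receptor or sheddase, the 4 highest and 2 lowest signalling genes by mean TPM, and the highest, lowest and detected markers. Itga2b and Cd14 were named after their values were seen. Members and lists were chosen with earlier results of these data known. Replicates may share an animal, so the spread between them may be partly technical.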

Additional observations from a re-analysis of the deposited data

Results flagged for a closer look

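The second quantification gave signal at 2 members that the gene tables place at 3 counts or fewer. For Cxcl3 it gave 18.2 estimated counts in replicate 1 and 76.4 in replicate 2, all in the single-exon retained intron model, whereas the gene tables gave 3 counts in replicate 1 and 1 count in replicate 2. For Cxcl9 it gave 43.1 estimated counts in replicate 1 and 80.1 in replicate 2, all in the spliced coding model, whereas the gene tables gave 1 count in replicate 1 and 0 in replicate 2. In this table both genes were higher in replicate 2. That side was common there, with 4.75% of 17956 genes over 2-fold lower in replicate 1 and 1.35% over 2-fold higher. Other genes near 0 in the gene tables had counts there too, Cxcl15 with 43.0 in replicate 1 and 58.2 in replicate 2, Cxcl5 with 59.8 in replicate 1 and 94.1 in replicate 2, and Cxcr2 with 151 in replicate 1 and 171 in replicate 2. Of the 31-base words in their transcripts, 5.46% (Cxcl3) and 0.574% (Cxcl9) also occur in transcripts of other genes, 2799 genes for Cxcl3 and 229 for Cxcl9. Cxcl3 shared 193 words in this way, and Cxcl2 shared 161 words with Cxcl3 alone. Most of the shared Cxcl3 words thus occur in Cxcl2. The part of these shared words in the estimates was not tested.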

How the results depend on the processing

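The count of 6 detected members was the same at 0.1 TPM, at 10 expected counts, with the second quantification and with posterior mean TPM. It was also 6 with TPM rescaled over protein-coding genes and with either library alone. At 5 TPM it was 4, where Cxcl1 and Cxcl10 dropped out. The coding transcript of Cxcl1 alone was below 1 TPM in replicate 2, at 0.36 TPM, and at 0.141 TPM in the second quantification. The levels themselves moved more. Rescaling over protein-coding genes raised all 9 means, for Cxcl2 from 33.1 to 108 TPM and for Cxcr4 from 40.6 to 134 TPM. The second quantification lowered the means of the 6 detected members, for Cxcl2 to 14.3 TPM and for Cxcl10 from 13.2 to 5.26 TPM. The 3 members over 2-fold higher in replicate 1 stayed 3 under DESeq2 size factors, no TMM factor, log2(TPM + 1), the second quantification, pseudocounts of 0.5 and 5, a filter at 10 mean counts and no filter. The 3 members with a retained intron share over 10 points lower in replicate 1 were 3 with the second quantification, beside 6.43% of 6205 genes. They were 2 with at least 200 mean counts, which Cxcl1 did not reach, beside 5.60% of 4769 genes. By share of TPM they were 2 (Cxcl10 differed by -9.35 points), and no share over all genes was computed there. This count and its settings were all chosen after seeing the data. The mean retained intron share of TPM was 14.3% for Cxcl16 and 10.6% for Pf4, and 31.1% and 32.6% in the second quantification. The log2 difference of Cxcr4 was 0.59 on log2(TPM + 1), where the median of all genes stood at 0.09. In the second quantification Cxcr4 had 20.6 TPM in replicate 1 and 21.4 TPM in replicate 2, so its direction on TPM turned, while its scaled count difference was 0.41. No paired analysis was possible because the libraries form 1 group and there is nothing to pair them with. With 2 libraries, no untreated sample and counts of 42 and 73 for Cxcl1 and Cxcl10 in replicate 2, depth limits the precision of those values, and low members such as Cxcl14 cannot be compared between libraries.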
